A study of Xenopus laevis with 3 samples.

Results

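The comparison of larvae of the non-sibling condition with larvae of the sibling condition was made on the microRNAs that the deposited table lists under Xenopus names. Members were the entries with the prefix xtr (X. tropicalis), xla (X. laevis) or xbo (X. borealis), with identical mature sequences merged and 30 or more counts when the 3 libraries are added up. That rule gave 156 sequences from 178 Xenopus entries, out of 1272 entries in the whole table. RNA came from neuronal tissue cut from the accessory olfactory bulb of Xenopus laevis larvae that were 15 days old (stage 45), frozen and sectioned at 50 µm. The groups were named non-sibling, orphan and sibling in the labels, which give no strain, no further treatment and no details of the rearing. They name 15 larvae without saying whether these were pooled or how they were shared among conditions. Each condition had 1 library (n = 1), so no p-value is given, and every difference is one between 2 libraries with no replicate check.

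MicroRNAs are short RNAs that guide Argonaute proteins to messenger RNAs, mostly through the seed, the bases 2 to 8 counted from the 5′ end. MicroRNAs with the same seed are grouped into families because they can bind the same kind of target site. The accessory olfactory bulb is the forebrain relay of the vomeronasal organ. Among the families found in vertebrate brain, miR-9 is known from neural progenitors and neurons, miR-124 from neurons, and miR-132, miR-212 and miR-138 from the response of neurons to activity and from synapses.

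The library total was 5188106 counts for non-sibling, 22538325 for orphan and 865654 for sibling larvae. The non-sibling library was thus 5.99 times as deep as the sibling library. Levels are given as scaled CPM, that is CPM after each library size was corrected by trimmed means of M values (TMM). A single count was worth 0.148 scaled CPM in the non-sibling library and 0.0472 in the orphan library, against 1.41 in the sibling library, so that the sibling library limited detection. Of the 156 sequences, 32 had under 10 counts in the sibling library, against 6 in the non-sibling library. A sequence was called higher at a ratio of at least 2, or lower at a ratio of at most 0.5, with a 95% interval that excluded 1. Intervals are exact intervals conditional on the summed counts of both libraries, and they cover counting error only.

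The mature sequences of the main members are given here with the seed in capitals, because members with 1 seed and nearly the same letters had different ratios. The first set is the miR-25 and miR-92 family, whose members shown have the seed AUUGCAC and which held the sequence furthest below the sibling level.
xtr-miR-92b: uAUUGCACucgucccggccuc
xbo-miR-92a: uAUUGCACucgucccggccugac
xtr-miR-92a: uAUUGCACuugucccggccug
xtr-miR-25: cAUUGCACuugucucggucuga
xtr-miR-363-3p: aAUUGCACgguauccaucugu

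The other lower sets that share a seed are the miR-125 pair and the miR-30 family, in which miR-30c stood apart from its relatives.
xtr-miR-125a: uCCCUGAGacccuuaaccugug
xtr-miR-125b: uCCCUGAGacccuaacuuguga
xtr-miR-30c: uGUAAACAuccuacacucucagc
xtr-miR-30a-5p: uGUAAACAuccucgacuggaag
xtr-miR-30d: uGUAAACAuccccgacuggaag

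Higher in the non-sibling library were both arms of miR-9a, shown with its relative miR-9b-5p, the pair of miR-103 and miR-107, and the single members miR-138, miR-375 and miR-203.
xtr-miR-9a-5p: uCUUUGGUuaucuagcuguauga
xtr-miR-9b-5p: uCUUUGGUuaccuagcuguauga
xtr-miR-9a-3p: uAAAGCUAgauaaccgaaagu
xtr-miR-103: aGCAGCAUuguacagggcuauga
xtr-miR-107: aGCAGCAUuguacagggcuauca
xtr-miR-138: aGCUGGUGuugugaauc
xtr-miR-375: uUUGUUCGuucggcucgcguua
xtr-miR-203: gUGAAAUGuuuaggaccacuug

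Across the comparison, 22 of the 156 sequences had a higher level in the non-sibling library, 17 a lower one and 117 neither. Of the 866 entries of any species with enough counts, 11.1% were called higher and 12.2% lower, 23.3% in all. Among the Xenopus sequences these shares were 14.1%, 10.9% and 25%, so the number of calls among them was close to that background. The median log2 ratio was 0.07 for the Xenopus sequences and -0.06 for all entries, with quartiles at -0.67 and 0.63 for the Xenopus sequences. The balance of directions rested on the scaling. Total counts shifted the median by 0.66 and gave 59 higher and 6 lower, upper-quartile factors shifted it by -0.25 and gave 10 and 28, and the authors' quantile-normalized counts shifted it by 0.23 and gave 32 and 15. For the quantile-normalized counts no interval was computed, so a call there needed only the 2-fold limit. Across 7 alternatives, 6 other scalings and the removal of a trend on base composition, 10 of the 22 higher and 6 of the 17 lower calls held every time. Most of the higher calls that held had under 10 sibling counts.

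**Figure D1:**
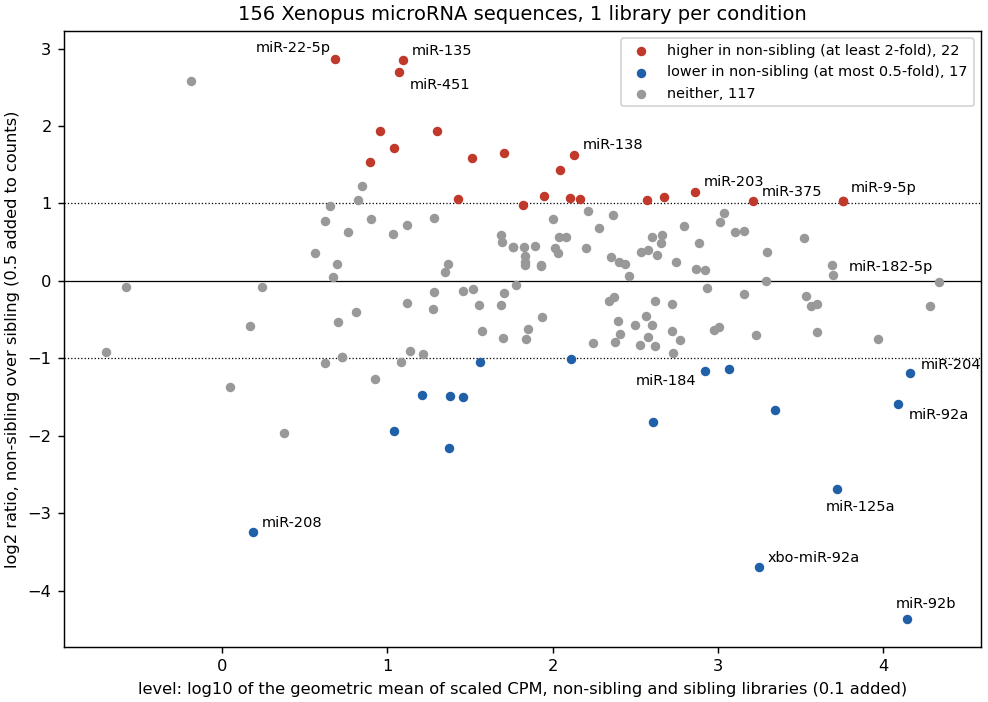
Log2 ratio of non-sibling over sibling counts (0.5 added to each count) against the level of each of the 156 Xenopus sequences, with dotted lines at 2-fold. The 17 lower sequences (blue) include miR-92b, miR-92a, miR-204 and miR-125a at the abundant end, whereas the largest ratios among the 22 higher ones (red) were at low levels. Grey points are the 117 sequences that were neither, and 1 of them high at the left, miR-17-3p, had no count in the sibling library.

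The difference in the most abundant sequences concerned the miR-25 and miR-92 family, known from dividing cells. Only some of its members, namely miR-25, miR-92a and miR-363, are encoded in the miR-17-92 cluster and its paralogs. xtr-miR-92b had 20554 counts in the non-sibling library and 83298 in the orphan library, against 44582 in the sibling library, or 3051, 3935 and 62798 scaled CPM. It took 2.11% of the Xenopus counts in the non-sibling library. In the sibling library, where it ranked first, it took 24.5% (24.3 to 24.7%, exact binomial 95% interval). The sibling library stood far above the other two. The ratio of non-sibling to sibling was 0.0486 (0.0478 to 0.0494).

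xbo-miR-92a had 490 scaled CPM in the non-sibling library and 458 in the orphan library, against 6367 in the sibling library. Its ratio was 0.0769 (0.0735 to 0.0805). xtr-miR-92a, at 7047, 8673 and 21243 scaled CPM in the non-sibling, orphan and sibling libraries, had a milder ratio of 0.332 (0.326 to 0.338). Here too the sibling library was the high one. Between miR-92a and miR-92b, which differ by U10C and G21C (the base of miR-92a first, positions counted from the 5′ end), the ratio of the 2 ratios was 6.83 (6.66 to 6.998). That quantity does not change under any scaling by a single factor per library, which the authors' quantile normalization is not.

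The other members of the family were not called. xtr-miR-25 had 563 scaled CPM in the non-sibling and 372 in the sibling library, giving 1.52 (1.34 to 1.72). xtr-miR-363-3p was at 1.403 times the sibling level (1.24 to 1.59). xtr-miR-367 (2.11, 0.547 to 18.0) and xtr-miR-363-5p (1.58, 0.401 to 13.7) rested on 2 sibling counts each. The family as a whole thus had 3 of 7 sequences lower and 4 neither, where 10.9% of all Xenopus sequences and 12.2% of all entries were lower. Its summed levels were 11700 scaled CPM in the non-sibling and 91168 in the sibling library. Of the lower sequences, xbo-miR-92a has C at position 10, as xtr-miR-92b has, and G at position 21, as xtr-miR-92a has. It differs from xtr-miR-92b only at the 3′ end. xbo-miR-92a and xtr-miR-92b may therefore not be separate observations. The 3 lower members were also rich in G and C, with 61.9% for miR-92b, 60.9% for xbo-miR-92a and 57.1% for miR-92a. Of the 5 tested sequences over 60% in G and C, 3 were lower and none higher, with a median log2 ratio of -1.82. Those 3 include miR-92b and xbo-miR-92a. The median was -0.60 from 50 to 60%, 0.36 from 40 to 50% and -0.40 at 40% or under, so it did not change steadily with G and C. Removing a linear trend on base composition and length, which was added once the data had been seen, left miR-92b at a log2 ratio of -3.70. A linear trend cannot follow such a course.

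The sequences of the miR-125 pair, homologs of the lin-4 microRNA of worms that act in differentiation, were both lower. xtr-miR-125a had 2063 scaled CPM in the non-sibling library and 2783 in the orphan library, against 13289 in the sibling library, and xtr-miR-125b had 787, 709 and 1731. The sibling library was again the high one for both, by a wider margin for miR-125a. Their ratios were 0.155 (0.151 to 0.159) for miR-125a and 0.454 (0.427 to 0.484) for miR-125b, and the ratio of miR-125b to miR-125a was 2.93 (2.74 to 3.13). miR-125b lost its call under total counts, the authors' quantile-normalized counts and the composition trend. xtr-miR-99 and xtr-miR-100, which share clusters with miR-125 in vertebrates, were at 0.698 (0.603 to 0.811) and 1.06 (1.02 to 1.09) times the sibling level, and neither was called.

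In the miR-30 family, which is broadly expressed, members with 1 seed had ratios on both sides of 1. xtr-miR-30c had 1242 scaled CPM in the non-sibling library and 2140 in the orphan library, against 3929 in the sibling library, which makes 0.316 (0.303 to 0.3302). xtr-miR-30a-5p had 800, 1291 and 489 scaled CPM in these libraries, a ratio of 1.64 (1.47 to 1.83). The sibling library was highest for miR-30c and lowest for miR-30a-5p. miR-30e (1.402), miR-30b (1.24) and miR-30d (0.810) were not called. The ratio of miR-30a-5p was 5.17 times that of miR-30c (4.60 to 5.81). Between miR-30a-5p and miR-30d, which differ by U12C, the same quantity was 2.02 (1.80 to 2.27).

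**Figure D2:**
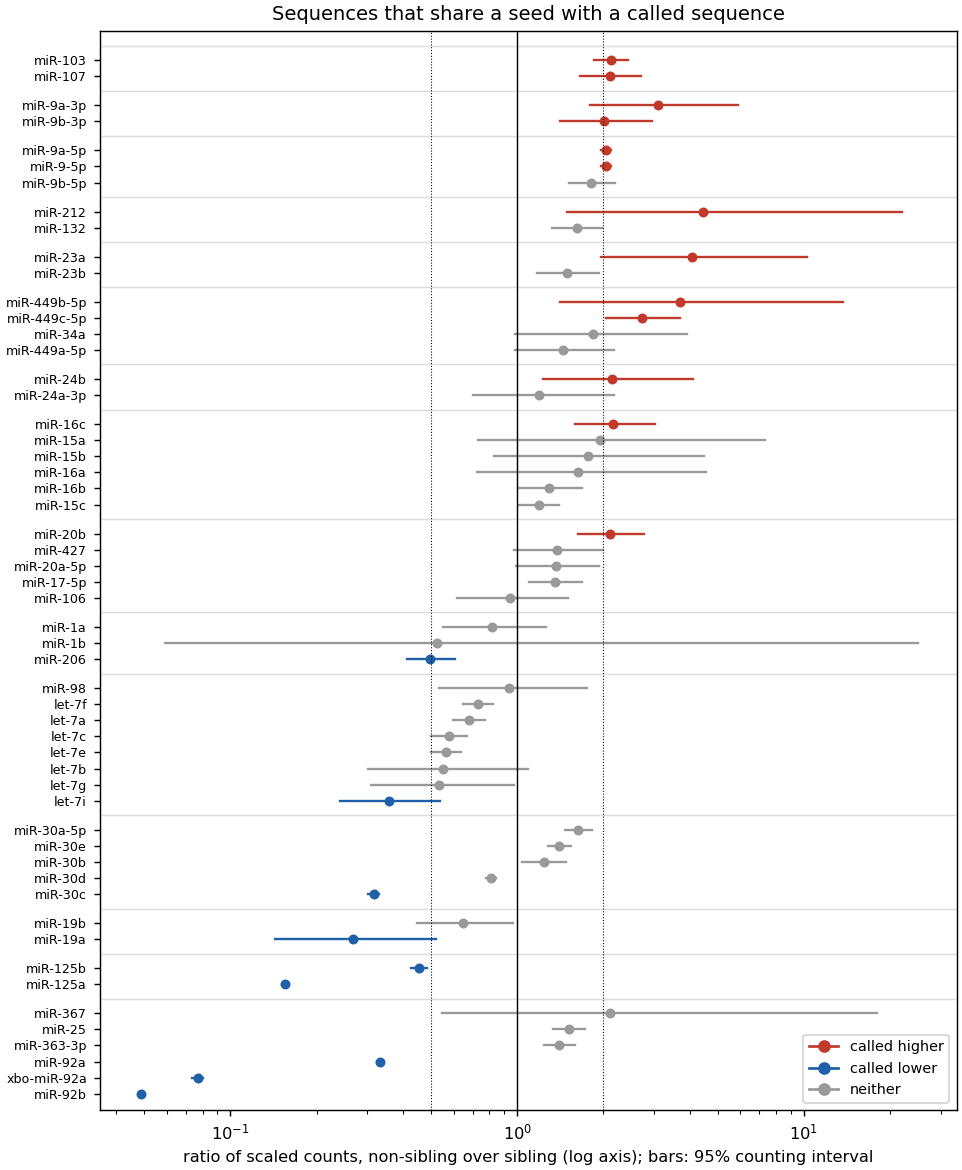
Ratio of non-sibling over sibling scaled counts (log axis) with 95% counting intervals for 54 sequences in 15 groups that share a seed and hold at least 1 called member (red higher, blue lower, grey neither). No group held both a higher and a lower member, yet miR-92b at 0.0486 and miR-25 at 1.52 share a seed, as do miR-30c at 0.316 and miR-30a-5p at 1.64.

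Over all seeds, 93 were represented and 31 of them by 2 or more sequences. Of these 31 seeds, 3 had all members called in 1 direction, namely those of miR-103 and miR-107, of the miR-9 3p arms and of miR-125, and 16 had no called member. Among 130 pairs that share a seed and are not contained in each other, 27 differed by at least 2-fold in their ratios with an interval that excluded 1, and for 78 the interval held 1. Pairs within 1 family share members and are not independent, and reads that fit both members of a pair cannot be told apart. Among pairs with a single substitution, miR-19b and miR-19a (C11U) differed by 2.43 (1.20 to 4.90) and miR-23a and miR-23b (U19A) by 2.73 (1.24 to 6.004). In contrast, the interval held 1 for miR-103 and miR-107 (G22C), at 1.01 (0.769 to 1.32), and for miR-9a-5p and miR-9b-5p (U11C), at 1.13 (0.936 to 1.36).

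Of the lower microRNAs known from epithelia of the eye and the choroid plexus, xtr-miR-204 was the most abundant. It had 9639 scaled CPM in the non-sibling library and 13308 in the orphan library, against 21959 in the sibling library, and its ratio was 0.439 (0.431 to 0.447). xtr-miR-184 had 555, 6635 and 1241 scaled CPM in the same order of libraries, with a ratio of 0.447 (0.415 to 0.481). The non-sibling library was lowest for both, but the orphan library was by far the highest for miR-184. Both sequences of this list were lower, where 10.9% of all Xenopus sequences and 12.2% of all entries were lower. Both lost the call under total counts and under the authors' quantile-normalized counts (miR-184 also with the composition trend removed). Whether the dissected pieces held different amounts of these epithelia was not tested, and fewer cells of a type cannot be told apart from less RNA per cell.

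The muscle list, miR-1, miR-133, miR-206, miR-208 and miR-499, had 3 of 9 sequences lower, none higher and 6 neither, where 10.9% of all Xenopus sequences and 12.2% of all entries were lower. Of its 3 calls, 1 rested on 3 counts in each library and 1 lay at the edge of the rule. Its median log2 ratio was -0.84, against 0.07 for all 156 sequences. xtr-miR-206, of skeletal muscle, had 90.6 scaled CPM in the non-sibling library and 151 in the orphan library, against 182 in the sibling library. That is a ratio of 0.498 (0.412 to 0.607) at the edge of the rule. It lost the call under total counts, median-of-ratios factors, TMM factors from entries with 30 counts or more, and the composition trend. xtr-miR-499, encoded in a myosin gene in mammals, had 14.3, 50.7 and 39.4 scaled CPM, a ratio of 0.361 (0.235 to 0.572). xtr-miR-208, also from a myosin gene in mammals, rested on 3 counts in each of the 2 libraries, with a ratio of 0.105 (0.0141 to 0.787). The 4 miR-133 sequences lay close together, between 0.5595 and 0.659 times the sibling level, and none was called. Also not called were xtr-miR-1a at 0.817 (0.550 to 1.26) and xtr-miR-1b at 0.527 (0.0590 to 24.9), the latter on 5 non-sibling counts and 1 sibling count. The list summed to 2740 scaled CPM in the non-sibling library and 4838 in the orphan library, against 4469 in the sibling library, so the non-sibling library was the low one.

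The remaining lower sequences belonged to several families. xtr-miR-193 had 217 scaled CPM in the non-sibling library and 236 in the orphan library, against 763 in the sibling library, with 62.5% G and C and a ratio of 0.284 (0.257 to 0.314). From the miR-17-92 cluster, xtr-miR-19a had 38 counts in the non-sibling and 15 in the sibling library (0.267, 0.143 to 0.522), and xtr-miR-18a-3p had 75 and 35 (0.226, 0.149 to 0.348). xtr-miR-92a, also of that cluster, was called lower as well, at 0.332 (0.326 to 0.338). The other tested sequences of that cluster were not called and lay on both sides of 1. They include xtr-miR-17-5p at 1.35 (1.10 to 1.68), xtr-miR-20a-5p at 1.37 (0.993 to 1.92), xtr-miR-18a-5p at 0.928 (0.590 to 1.54) and xtr-miR-19b at 0.648 (0.447 to 0.967). xtr-let-7i, of the let-7 family that marks the end of division in many tissues, had 115 and 34 counts (0.356, 0.241 to 0.539). xtr-miR-190, known from the brain in mammals, had 66 and 19 counts (0.366, 0.217 to 0.646), and xtr-miR-30a-3p had 171 and 37 (0.487, 0.3398 to 0.715). In the let-7 and miR-98 family all 8 tested sequences had a ratio under 1, from 0.356 to 0.934, but only let-7i was called. Of all 156 Xenopus sequences, 73 had a ratio under 1. xtr-let-7f was at 0.730 (0.647 to 0.826) and xtr-let-7a at 0.678 (0.596 to 0.773). The shared direction rested on the scaling, since under total counts the log2 ratios of let-7f and let-7a were 0.21 and 0.10. Together the 17 lower sequences took 17.5% of the Xenopus counts in the non-sibling library, 19.2% in the orphan library and 52.3% in the sibling library. They were selected as lower in the non-sibling than in the sibling library, so that order follows from the selection. xtr-miR-92b alone took 24.5% in the sibling library. Under total counts miR-92a, miR-30c, miR-30a-3p, miR-190, miR-499, miR-208 and let-7i lost the call, as did miR-92a under the authors' quantile-normalized counts and miR-30a-3p under median-of-ratios factors.

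The leading higher family was miR-9, with 4 of 5 sequences higher and 1 neither. Of all Xenopus sequences 14.1% were higher, and of all entries 11.1%. xtr-miR-9a-5p had 55216 counts in the non-sibling library and 140904 in the orphan library, against 2849 in the sibling library, or 8197, 6657 and 4013 scaled CPM. The sibling library was thus the low one. The ratio was 2.04 (1.97 to 2.12), and the sequence listed as xtr-miR-9-5p is contained in it with the same counts, so the 2 are 1 observation. xtr-miR-9a-3p, from the other arm, had 56.9, 47.95 and 18.3 scaled CPM in the non-sibling, orphan and sibling libraries, a ratio of 3.11 (1.79 to 5.89). The 3p arm of miR-9b was at 2.01 (1.42 to 2.94) and was highest in the orphan library, while xtr-miR-9b-5p missed the size rule at 1.81 (1.51 to 2.19). The call of miR-9a-5p was lost with upper-quartile factors and with the trend on G and C content removed, where its log2 ratio was 0.63.

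The whole neuron list had 7 of 16 sequences higher, none lower and 9 neither, where 14.1% of all Xenopus sequences and 11.1% of all entries were higher. Of the 7, miR-9-5p and miR-9a-5p are 1 observation. Its median log2 ratio was 0.91, against 0.07 for all 156 sequences. Its sum was 11251 scaled CPM in the non-sibling library and 10053 in the orphan library, against 5964 in the sibling library. Most of that sum was the miR-9 family, with 8662, 7307 and 4251 scaled CPM in the same order of libraries. xtr-miR-138, which acts at dendritic spines in rat neurons, had 238, 207.6 and 76.1 scaled CPM in these libraries. The sibling library was the low one, and the ratio was 3.12 (2.38 to 4.18). xtr-miR-135 had 239 counts in the non-sibling library and 874 in the orphan library, against 3 in the sibling library, giving a ratio of 8.40 (2.84 to 41.0), and xtr-miR-212 had 127, 472 and 3, a ratio of 4.46 (1.49 to 21.9). Without these 2 rarely counted members, 5 of the 7 higher sequences had at least 10 sibling counts, and 4 of those 5 are miR-9 sequences, among them the contained one.

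The other neuronal members were not called. Of these, miR-137 and miR-153 passed the size rule, but their intervals held 1. xtr-miR-132, which is processed from the same cluster as miR-212 and is induced by activity, was at 1.61 times the sibling level (1.32 to 1.98). xtr-miR-128 was at 1.55 (1.44 to 1.68), xtr-miR-7 at 1.38 (1.02 to 1.90) and xtr-miR-137 at 2.42 (0.634 to 20.6) on 2 sibling counts. xtr-miR-124, the microRNA most used to mark neurons, had 73.5 scaled CPM in the non-sibling and 63.4 in the sibling library (1.16, 0.853 to 1.61). xtr-miR-218 was at 1.17 (0.887 to 1.56), xtr-miR-129 at 0.869 (0.744 to 1.02) and xtr-miR-153 at 0.281 (0.0675 to 1.64). Markers of neurons were thus present, but miR-124 lay far below the sensory organ microRNA xtr-miR-182-5p, which had 21657, 37791 and 21923 scaled CPM in the non-sibling, orphan and sibling libraries. Levels of different microRNAs also depend on how well each is captured, so this order is one of counts.

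**Figure D3:**
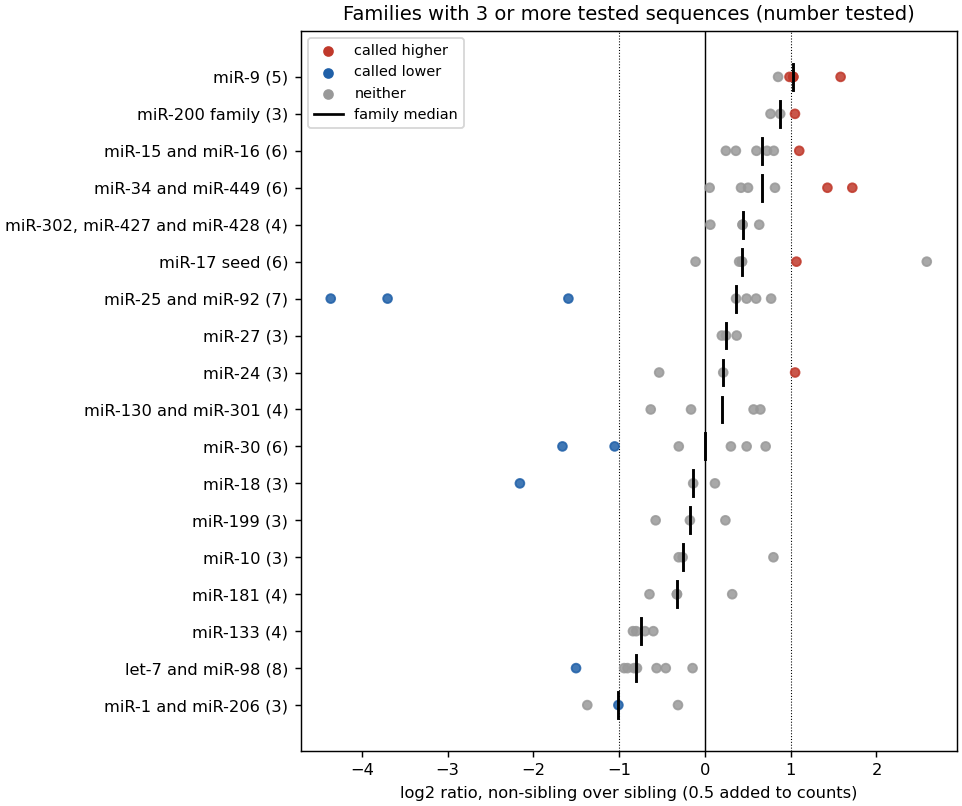
Log2 ratio of each tested sequence (points) and the median (black bar) in the 18 families with 3 or more tested sequences, the highest median at the top. The miR-9 family has the highest median, at 1.03, and the miR-1 and miR-206 family the lowest, at -1.01, whereas the miR-25 and miR-92 family is spread from miR-367 down to miR-92b. The lowest median is the value of miR-206 alone, with miR-1a above it at -0.31 and miR-1b below it on 1 sibling count.

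Among epithelial and endocrine microRNAs, xtr-miR-375, known from endocrine cells of the pancreas and pituitary, had 2323 scaled CPM in the non-sibling library and 1356 in the orphan library, against 1135 in the sibling library. The non-sibling library was the high one, at 2.05 times the sibling level (1.91 to 2.199). xtr-miR-203, which in mouse skin limits the stem cell state, had 1081, 482 and 486 scaled CPM, a ratio of 2.23 (1.997 to 2.49). The orphan and sibling libraries lay together for miR-203, with the non-sibling library above them. xtr-miR-205a, the other abundant skin microRNA, was not called, at 3181 scaled CPM in the non-sibling and 3647 in the sibling library (0.872, 0.837 to 0.909), and xtr-miR-205b was at 0.433 (0.205 to 1.02). The skin list of 3 therefore divided, and its median of -0.20 turned to 0.47 under total counts, 0.90 under the authors' quantile-normalized counts and 0.20 with the composition trend removed.

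The miR-200 family, of epithelia and of olfactory neurogenesis in mouse and zebrafish, had 1 of 3 sequences higher and 2 neither. The share called higher was 14.1% for all Xenopus sequences and 11.1% for all entries. xtr-miR-200a had 535 scaled CPM in the non-sibling library and 224 in the orphan library, against 258 in the sibling library, giving a ratio of 2.08 (1.79 to 2.42). xtr-miR-429 and xtr-miR-200b were at 1.84 (1.69 to 2.004) and 1.70 (1.56 to 1.86) times the sibling level, just short of the size rule. All 3 were thus highest in the non-sibling library, and the family median was a log2 ratio of 0.88.

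The miR-34 and miR-449 family, which in Xenopus epidermis is known to act in the formation of motile cilia, had 2 of 6 sequences higher and 4 neither. Among all Xenopus sequences 14.1% were higher, and among all entries 11.1%. xtr-miR-449c-5p had 184 scaled CPM in the non-sibling library and 45.2 in the orphan library, against 67.6 in the sibling library, giving a ratio of 2.72 (2.04 to 3.71). xtr-miR-449b-5p had 20.8, 4.68 and 5.63 scaled CPM, a ratio of 3.69 (1.41 to 13.7) on 4 sibling counts. For both the non-sibling library was the highest. xtr-miR-34b was at 1.35 (1.04 to 1.77), xtr-miR-449a-5p at 1.44 (0.986 to 2.18) and xtr-miR-34a at 1.84 (0.979 to 3.91). The ciliated cell list summed to 388 scaled CPM in the non-sibling library and 89.0 in the orphan library, against 207 in the sibling library.

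Pairs and single members of broadly expressed families made up most of the other higher sequences. xtr-miR-103 and xtr-miR-107, encoded in introns of pantothenate kinase genes in vertebrates, had 689 and 213 scaled CPM in the non-sibling library, 582 and 141.3 in the orphan library, and 325 and 101 in the sibling library. Both were lowest in the sibling library, with ratios of 2.12 (1.86 to 2.43) and 2.099 (1.66 to 2.698). xtr-miR-16c, of a family that restrains the cell cycle, was at 2.17 (1.595 to 3.02) and xtr-miR-20b, of the miR-17 seed, at 2.11 (1.64 to 2.77). xtr-miR-24b was at 2.15 (1.23 to 4.09), xtr-miR-23a at 4.08 (1.95 to 10.2) on 7 sibling counts, and xtr-miR-489, known from muscle stem cells in mouse, at 3.21 (2.06 to 5.29).

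Both blood microRNAs called higher had only 3 counts in the sibling library. xtr-miR-451, of red blood cells, had 214 counts in the non-sibling library and 391 in the orphan library, against 3 in the sibling library, giving a ratio of 7.52 (2.54 to 36.7). xtr-miR-155, of activated white blood cells, had 96, 217 and 3 counts, a ratio of 3.37 (1.12 to 16.6). xtr-miR-150, of lymphocytes, was counted far more often and lay just outside the lower limit at 0.524 (0.477 to 0.577), with 385 scaled CPM in the non-sibling and 735 in the sibling library. Of the leukocyte list 1 of 5 sequences was higher and 4 were neither, against 14.1% higher among all Xenopus sequences and 11.1% among all entries. Its median of -0.08 turned to 0.59 under total counts, 0.01 under median-of-ratios factors and 1.66 under the authors' quantile-normalized counts. The median of -0.08 was the value of xtr-miR-142-3p, with 4 non-sibling counts and no sibling count. Its sign therefore rested on the 0.5 added to each count. The 22 higher sequences together took 9.85% of the Xenopus counts in the non-sibling library, 5.07% in the orphan library and 2.64% in the sibling library. Here too the order of the non-sibling and sibling libraries follows from the selection. xtr-miR-9a-5p alone took 5.67% in the non-sibling library. With upper-quartile factors miR-375, miR-203, miR-200a, miR-103, miR-107, miR-16c, miR-20b, miR-24b, miR-155 and miR-9b-3p lost the call. The calls of miR-103, miR-107, miR-16c and miR-20b were also lost under the authors' quantile-normalized counts, those of miR-203, miR-200a, miR-155 and miR-9b-3p with the composition trend removed, and that of miR-9b-3p with TMM factors from the Xenopus sequences alone.

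**Figure D4:**
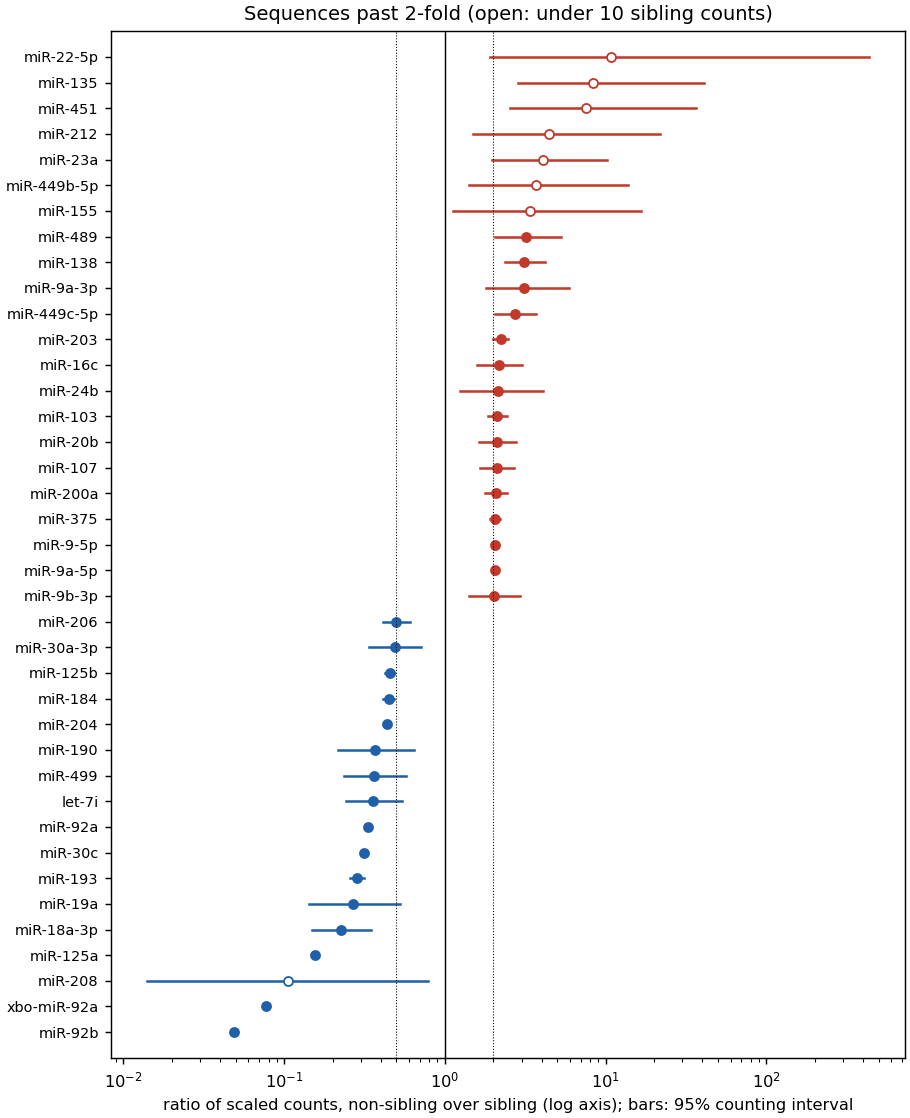
Ratio of non-sibling over sibling scaled counts (log axis) with 95% counting intervals for the 22 higher (red) and 17 lower (blue) sequences, open symbols marking those with under 10 sibling counts. The widest intervals belong to open symbols, miR-22-5p (1.91 to 433) and miR-208 (0.0141 to 0.787), and the ratios run from 10.9 for miR-22-5p, on 1 sibling count, to 0.0486 for miR-92b.

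Of the 22 higher sequences 7 had under 10 counts in the sibling library, as had 1 of the 17 lower ones, miR-208. Requiring 10 sibling counts or more, a choice made once the data had been seen, left 15 sequences higher and 16 lower among 124. xtr-miR-22-5p, the minor arm of miR-22, was an extreme case, with 15.3 scaled CPM in the non-sibling library and a single count, or 1.41 scaled CPM, in the sibling library (10.9, 1.91 to 433). xtr-miR-17-3p had 28 counts in the non-sibling library and none in the sibling library, where the floor of 3 counts is 4.23 scaled CPM, so at 4.16 scaled CPM in the non-sibling library no difference was detectable. xtr-miR-142-3p and xtr-miR-33b also had no sibling count, with 4 and 2 non-sibling counts.

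Several families without a call had members on both sides of the sibling level. Ratios ran from 0.639 to 1.26 in the miR-181 family, with xtr-miR-181a-5p at 0.797 (0.784 to 0.811) and xtr-miR-181b at 0.798 (0.768 to 0.8297). They ran from 0.646 for xtr-miR-301 to 1.57 for xtr-miR-130b in the miR-130 and miR-301 family, and from 0.818 to 1.75 in the miR-10 family of the Hox clusters, with xtr-miR-10b at 0.837 and xtr-miR-10a at 1.75. Others lay on 1 side of the sibling level, such as the miR-148 sequences at 0.631 and 0.726 and the single members miR-140 at 0.621 and miR-183 at 0.592 below it. Above it, the miR-27 sequences lay between 1.16 and 1.29, and the early embryo sequences miR-302, miR-427 and miR-428 between 1.05 and 1.79. The miR-199 family, of mesenchyme, ran from 0.672 for xtr-miR-199b to 1.18 for xtr-miR-199a-5p. In the sensory organ list none of 4 sequences was called, where the interval of xtr-miR-183 was 0.578 to 0.606, with xtr-miR-182-5p at 0.988 (0.972 to 1.004). The cartilage and mesenchyme list (6 sequences), the vessel list (4) and the oligodendrocyte list (1) also had no call, and in the digestive organ list miR-375 was the 1 of 5. xtr-miR-221 and xtr-miR-222, which share a seed, were at 1.88 (1.51 to 2.37) and 0.604 (0.539 to 0.679), so their ratios differed by 3.12 (2.44 to 3.99) although neither was called.

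Just outside the limits on the higher side lay xtr-miR-221, xtr-miR-367 at 2.11 with an interval that held 1, and xtr-miR-15a at 1.95 (0.7302 to 7.34). On the lower side they were xtr-miR-2184 at 0.501 (0.266 to 1.03), miR-150 and xtr-miR-182-3p at 0.527 (0.177 to 2.12). Just inside them lay miR-9b-3p at 2.01 and miR-206 at 0.498.

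The arms of 1 precursor come from the same transcript, and their share does not depend on a scaling factor per library. Of 15 pairs of arms tested, 7 had 95% exact binomial intervals of the 3p share that did not overlap between the non-sibling and sibling libraries. The same count over entries of all species was not made, so whether 7 of 15 is many cannot be said. These intervals cover counting error only and are narrow where counts are high. Of these 7 pairs, 2 use the same miR-181a-5p counts, once with each of the 3p arms of miR-181a-1 and miR-181a-2, and that 5p sequence can come from both precursors. For miR-18a the 3p arm held 28.8% of the counts of both arms in the non-sibling library (23.4 to 34.8%), 26.2% in the orphan library and 62.5% in the sibling library (48.5 to 75.1%). For miR-30a it held 3.08% (2.64 to 3.57%) in the non-sibling library and 4.15% in the orphan library, against 9.64% (6.88 to 13.04%) in the sibling library. In both precursors the sibling library had the largest 3p share. For miR-126, of blood vessels, the order was the reverse, with 46.3% (45.0 to 47.6%) in the non-sibling library and 39.4% in the orphan library, against 28.0% (24.8 to 31.4%) in the sibling library. The intervals overlapped for both miR-9 precursors, with 0.689% (0.622 to 0.761%) for miR-9a in the non-sibling and 0.454% (0.242 to 0.775%) in the sibling library, and 22.9% and 21.2% for miR-9b.

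**Figure D5:**
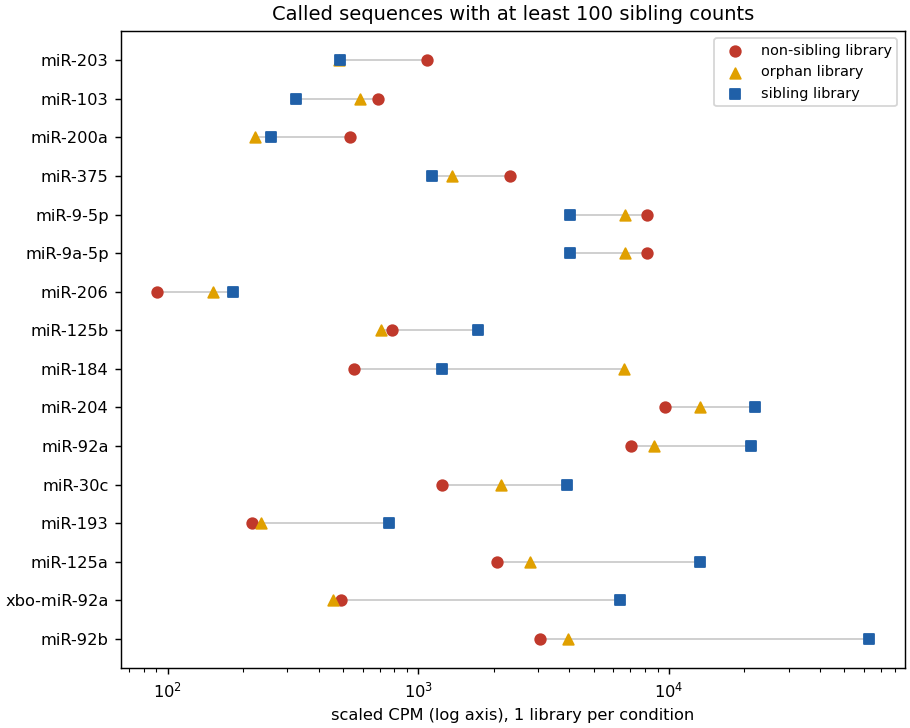
Scaled CPM (log axis) in the non-sibling, orphan and sibling libraries for the 16 called sequences with at least 100 sibling counts. For miR-92b, xbo-miR-92a, miR-125a and miR-193 the non-sibling and orphan libraries lie close together and the sibling library stands apart, whereas for miR-203, miR-200a and miR-375 the non-sibling library stands apart.

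The authors' deposited table holds log2 ratios of its own, taken from quantile-normalized counts. Non-sibling over sibling stood there at -3.47 for xtr-miR-92b, -3.83 for xbo-miR-92a, -1.72 for xtr-miR-125a and -1.66 for xtr-miR-193 in the authors' deposited table. On the higher side the authors' deposited table gave 2.03 for xtr-miR-9a-5p, 1.71 for xtr-miR-135 and 1.54 for xtr-miR-375. Many other called sequences lay within 2-fold there. Among the rarely counted ones were xtr-miR-212 (0.95), xtr-miR-449b-5p (0.86), xtr-miR-155 (0.76), xtr-miR-19a (-0.88) and xtr-miR-208 (-0.33). Among those counted more often were xtr-miR-204 (-0.57), xtr-miR-92a (-0.63), xtr-miR-125b (-0.64), xtr-miR-184 (-0.87), xtr-miR-103 (0.90) and xtr-miR-107 (0.64). The deposited value of xtr-miR-22-5p was 1.07. Calls under the authors' quantile-normalized counts were made from ratios recomputed from those counts. They can therefore hold where the deposited log2 ratio is within 2-fold, as for miR-212, miR-449b-5p and miR-19a.

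The 14 Xenopus sequences under the limit of 30 counts were not tested, and the highest of their sums was 28. That sequence, xtr-miR-122, which marks the liver, had 22 counts in the non-sibling library and 1 in the orphan library, against 5 in the sibling library. Others were xtr-miR-144 of red blood cells, with 3, 10 and 3 counts, and xtr-miR-219 of oligodendrocytes, with 0, 3 and 0.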

How the data were processed

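The labels' protocols name total RNA extraction from frozen tissue and a kit for messenger RNA, although the labels describe the molecules as microRNA, so the library method is not settled. The deposited table gives a read count per mature microRNA entry and library, per the file headers, with no normalization. It also holds a signal, the quantile-normalized counts made by the authors, and the deposited log2 ratio of these between pairs of libraries. For the aligner, the counting tool and the microRNA release, nothing is stated in the labels or headers used here. The 1 unnamed line was left out, and 0 columns lacked a sample.

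Libraries were mapped to conditions by the number in their titles. Of 8 Xenopus sequences held by several entries all 8 had equal counts, and the entry with the most counts stood for each. Reads were scaled with TMM factors over all entries (edgeR 4.0.16, R 4.3.3), 1.298 for non-sibling, 0.939 for orphan and 0.820 for sibling. The ratio has an exact conditional 95% interval (Clopper-Pearson). Ratios between members use a normal interval on the log scale. Log2 ratios have 0.5 added to each count. Sums leave out 3 sequences contained in longer ones. The rule for naming microRNAs took all called sequences, the 12 most abundant, the 3 nearest to each limit and the 2 leading members of each family with 3 or more. Some of these that were not called are given only within a range or are not printed. The members and lists were chosen with earlier results of these data known. Calculations ran in Python 3.11.15 with scipy 1.17.1 and were tested on simulated Poisson counts. No genome was used, so no positions are given.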

Additional observations from a re-analysis of the deposited data

How the results depend on the processing

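With total counts as the scale, 59 sequences were higher and 6 lower, with a median log2 ratio of 0.73. The upper-quartile factors gave 10 higher and 28 lower. The other alternatives left both counts within 1.5 times the main ones, from 15 to 32 higher and from 15 to 21 lower. No called sequence changed direction under the scalings tried. Under a single factor per library none could, because the largest shift, 0.66, is less than the log2 ratio of about 1 that a call needs. Only the authors' quantile-normalized counts and the removal of the composition trend could have changed a direction. On the higher side the calls of miR-22-5p, miR-135, miR-451, miR-212, miR-23a, miR-449b-5p, miR-449c-5p, miR-489, miR-138 and miR-9a-3p held under all 7 scalings and corrections. Of these, miR-22-5p rested on 1 sibling count, miR-135, miR-451 and miR-212 on 3 each, miR-449b-5p on 4 and miR-23a on 7. Only miR-449c-5p, miR-489, miR-138 and miR-9a-3p had at least 10. Holding throughout is thus no sign of good counting. On the lower side the calls of miR-92b, xbo-miR-92a, miR-125a, miR-193, miR-19a and miR-18a-3p held. With 5 added to each count, the median log2 ratio of the family of miR-25 and miR-92 was -0.92, against 0.36 with 0.5 added, and that of miR-24 was -0.12. These medians are the values of single sequences with few sibling counts, which 5 added counts change most. They are xtr-miR-363-5p, with 30 non-sibling and 2 sibling counts, and xtr-miR-24a-3p, with 170 and 15. Under total counts the medians turned positive for the miR-181 (0.34), miR-199 (0.49), miR-10 (0.40), miR-18 (0.53) and miR-30 (0.66) families and the vessel (0.35) and cartilage (0.44) lists, and under upper-quartile factors they turned negative for the miR-130 and miR-301 (-0.05), miR-24 (-0.04) and miR-27 (-0.0045) families and the digestive organ list (-0.04). Under the authors' quantile-normalized counts the miR-181 (0.49), miR-199 (0.09) and miR-30 (0.33) families and the vessel list (0.09) turned positive. With the composition trend removed, the median of miR-130 and miR-301 was -0.07 and that of miR-30 was 0.01, and miR-30 was also positive under median-of-ratios factors (0.09) and TMM over entries with at least 30 counts (0.03), against -0.0010 as reported. Scaling over entries with at least 30 counts, a minimum of 10 sibling counts and the trend on G and C content were chosen after seeing the data. No paired analysis was possible because each condition had 1 library, and for the same reason no replicate could be left out. The depth of the sibling library limits every sequence with few counts there.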
